A study of Homo sapiens with 4 samples.

Results

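The colony-stimulating factors are the secreted growth factors CSF1, CSF2 and CSF3, and their transcripts were followed in SUM159, a cell line of triple-negative breast cancer (TNBC). The members were 3 genes of the 60279 in the deposited tables, chosen by name because CSF2 went from near 0 to high across the libraries, so their levels are a description and were not tested. There were 4 RNA-seq libraries, 1 each for untreated cells, cells given palbociclib (an inhibitor of CDK4 and CDK6), cells given indisulam (a sulfonamide that brings the splicing factor RBM39 to a ubiquitin ligase) and cells given both drugs. All cells grew in the same medium with serum, insulin and hydrocortisone. The library labels give 0.5 µM palbociclib and 2 µM indisulam for 10 days, whereas the series text gives 2 µM and 3 µM for 16 h. Neither source settles which treatment the libraries received. Values for the 4 libraries are given in the order untreated, palbociclib, indisulam, combination wherever the libraries are not named.

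CSF1, also called M-CSF, drives monocytes and macrophages through the receptor kinase CSF1R, which it shares with the cytokine IL34. CSF2, or GM-CSF, acts on granulocytes and macrophages through its own alpha chain (CSF2RA) and a beta chain (CSF2RB) that also serves the receptors of IL3 and IL5. CSF3, or G-CSF, drives neutrophil production through CSF3R. CSF2 and CSF3 are typically silent in resting cells and are induced by inflammatory cytokines such as IL-1, acting on NF-κB and AP-1 factors at their promoters and on the short life of their mRNAs. They are also known members of the senescence-associated secretory phenotype, the set of proteins that senescent cells release.

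CSF2 (ENSG00000164400, GRCh38 chromosome 5, 132073789 to 132076170, plus strand) had the widest range of the members, and its promoter is shown here. The sequence is from RefSeq on GRCh38.p14, 5′ to 3′, and covers the 250 bases before the gene start (chr5:132073539-132073788, plus strand). Capitals mark matches on either strand to a κB motif (GGGAA, any 3 bases, then CC), the CK-1 element (GAGATTC) and the CATTA repeat.

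CSF2: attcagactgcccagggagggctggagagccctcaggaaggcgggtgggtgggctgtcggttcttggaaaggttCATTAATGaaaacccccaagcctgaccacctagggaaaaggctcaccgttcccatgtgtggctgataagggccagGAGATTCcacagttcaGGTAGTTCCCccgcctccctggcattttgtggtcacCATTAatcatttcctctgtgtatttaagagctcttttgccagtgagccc

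The κB match lay on the minus strand at -85 to -76 from the gene start, and the CK-1 match at -101 to -95. The CATTA motif matched 3 times, and a pair of the matches overlapped. Of 35116 promoter windows of the same length, 6.02% held the κB motif, 2.35% the CK-1 motif and 21.1% the CATTA motif. An AP-1 motif (TGANTCA) was present in 6.57% of the windows and was not matched in this one. These motifs were chosen with the sequence in view, and a match is only a run of letters. Promoters of CSF1 and CSF3 were not used here.

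The libraries held 12555908 to 16712174 reads in genes, and 3 reads, the floor used here, came to between 0.18 and 0.239 CPM, the count of a gene scaled to a library total of 1000000. There were no replicates, so every interval given is a 95% interval from counting error alone and leaves out variation between cultures. PCR copies of a molecule also could not be told from separate molecules. Among markers of the line, the mesenchymal genes VIM, CD44 and ZEB1 had means of 3313, 790.8 and 63.3 CPM, and EGFR one of 106.7 CPM. Of the receptors that define TNBC by their absence, ESR1 had at most 16 reads and PGR at most 3 in any library, while ERBB2 transcripts were present at a mean of 125.7 CPM. Of 7 leukocyte markers, CD3E and MS4A1 were at 0 reads in all libraries, CD2 and LYZ did not exceed 3 reads, and PTPRC was present at a mean of 13.3 CPM. CD14 had 116, 69, 66 and 66 reads, and ITGAM had 5, 11, 8 and 26, a ratio of 4.55 between combination and untreated (1.72 to 15.2). The summed leukocyte markers ranged from 17.8 to 21.96 CPM and were lowest in the combination, although ITGAM was highest there. The 2 endothelial markers summed to 15.6, 42.7, 17.5 and 20.4 CPM. The part of these markers in the results was not tested.

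CSF2 was close to undetected in untreated cells and was higher with each drug and highest with both. Its reads numbered 1 in untreated cells, 47 under palbociclib, 274 under indisulam and 888 under both drugs. As levels these were 0.0796 CPM (0.00202 to 0.444), 3.70 CPM (2.72 to 4.92), 16.4 CPM (14.5 to 18.5) and 61.8 CPM (57.8 to 66.0). The counting intervals of the 4 libraries did not overlap, in the order untreated, palbociclib, indisulam, combination. Against untreated, CSF2 was 46.5-fold higher with palbociclib (7.95 to 1875), 205.9-fold higher with indisulam (36.6 to 8160) and 776.5-fold higher in the combination (139 to 30700). These folds rest on a single read in the untreated library, and the lower ends of the intervals are what the depth allows to be stated. With 1 scaled count added to each library the ratio of combination to untreated was 410.9. Comparisons that leave out the untreated library were much narrower. The combination was 16.7-fold above palbociclib (12.4 to 22.9) and 3.77-fold above indisulam (3.29 to 4.34). In bulk RNA a few cells with much CSF2 transcript and many cells with little cannot be told apart.

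**Figure D1:**
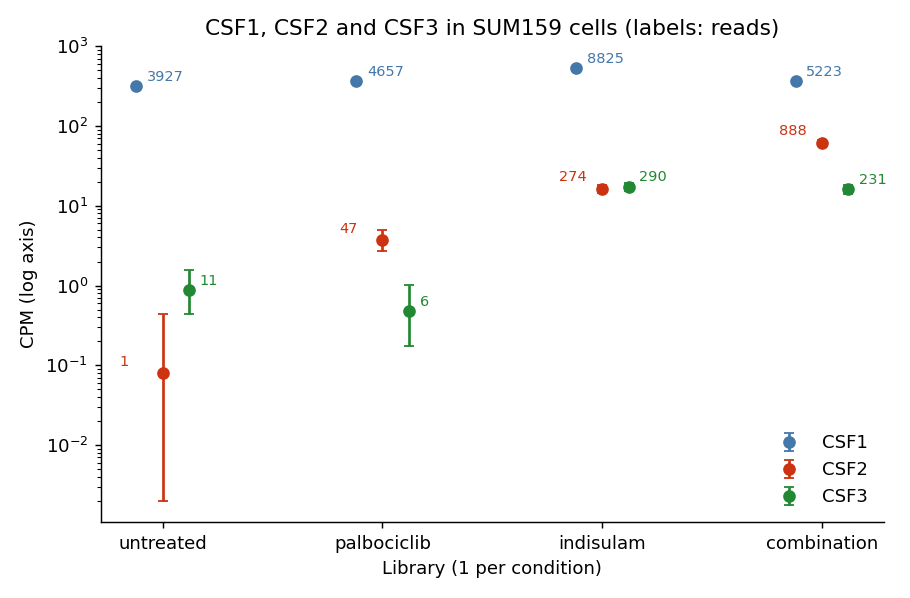
Level of each colony-stimulating factor transcript (CPM, log axis) in the 4 libraries, with 95% counting intervals as bars and read counts as labels. CSF2 climbs from 1 read to 888, CSF3 sits at 6 to 11 reads without indisulam and 231 to 290 with it, and CSF1 stays between 312.8 and 528.1 CPM.

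CSF3 (ENSG00000108342, chromosome 17, 40015361 to 40017813, plus strand) was high only in the libraries with indisulam. Its reads numbered 11 in untreated cells, 6 under palbociclib, 290 under indisulam and 231 under both drugs, or 0.876, 0.473, 17.4 and 16.1 CPM. The libraries without indisulam were low and had overlapping intervals, and so did the libraries with indisulam, with a wide gap between these pairs. CSF3 was 19.8-fold higher with indisulam than untreated (10.9 to 40.1) and 34.0-fold higher in the combination than with palbociclib (15.4 to 93.7). For palbociclib against untreated the ratio was 0.54 (0.164 to 1.59), so that at this depth a difference in either direction was not detectable. For the combination against indisulam, where the reads were ample, the ratio was 0.927 (0.776 to 1.11).

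CSF1 (ENSG00000184371, chromosome 1, 109910242 to 109930992, plus strand) was abundant in every library and stayed within 2-fold in all 5 comparisons. Its reads numbered 3927 in untreated cells, 4657 under palbociclib, 8825 under indisulam and 5223 under both drugs, or 312.8, 366.9, 528.1 and 363.7 CPM. The indisulam library was the highest, and the palbociclib and combination libraries had overlapping intervals. The ratio to untreated was 1.17 with palbociclib (1.12 to 1.22), 1.69 with indisulam (1.63 to 1.75) and 1.16 in the combination (1.12 to 1.21). The combination was at 0.991 of palbociclib (0.953 to 1.03) and at 0.689 of indisulam (0.665 to 0.713). With TMM scaling the first of these was 0.926. In the untreated library CSF1 already exceeded 96.9% of the 14269 genes with a mean of at least 1 CPM, against 0.17% for CSF2 and 3.57% for CSF3. CSF2 and CSF3 were under 1 CPM in that library and passed this filter only through treated libraries. Their low percentages follow in part from the filter and are not read as a baseline. Among all 60279 genes, ordered from the most reads in the untreated library, CSF1 was place 448, CSF3 14076 and CSF2 18955. Genes detected there numbered 22191.

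To read the small CSF1 differences, the noise between libraries was gauged from the 2 × 2 layout of the drugs. The departure from a multiplicative effect of the drugs was taken as if it were all noise. A log2 ratio would then have a robust standard deviation of 0.28 over the 2001 genes at 100 CPM or more. This value comes from the median absolute deviation, so genes with large departures weigh little in it. It is a spread over genes and not between cultures. The log2 ratio of CSF1 for palbociclib against untreated, 0.23, was 0.82 times this spread and that of the combination against untreated, 0.22, was 0.78 times. Those of indisulam against untreated, 0.76, and of the combination against indisulam, -0.54, were 2.70 and 1.92 times the spread.

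A call of higher or lower required a 2-fold or larger ratio whose counting interval lay wholly off 1. The 3 comparisons with untreated cells share that library, and the 3 with the combination share that one. In the palbociclib library 1 of the 3 members was called higher than untreated (CSF2), where 5.92% of all 14269 genes were called higher and 4.93% lower. With indisulam against untreated 2 members (CSF2 and CSF3) were called higher, where 8.61% of all genes were, and 6.81% lower. The same members were called in the combination against untreated, where 13.0% of all genes were called higher and 10.7% lower, and against palbociclib, where 9.66% were called higher and 7.48% lower (17.1% in either direction). In the combination against indisulam CSF2 alone of the 3 was called higher, where 5.21% of all genes were, 3.24% being called lower and 8.45% in either direction, and no member was called lower in any of these 5 comparisons. The members were chosen on these values, so nothing is read from the counts. The excess of higher over lower calls among all genes depended on scaling, and with TMM it turned for indisulam against untreated (1069 higher, 1102 lower), the combination against untreated (1634, 1749) and the combination against palbociclib (1176, 1256).

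**Figure D2:**
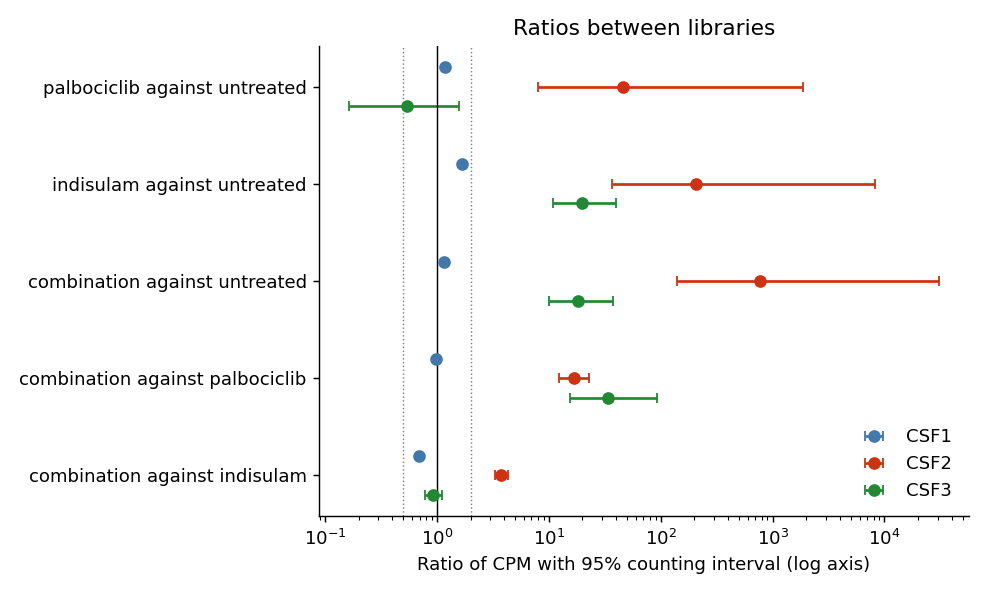
Ratio of CPM between libraries (log axis) for each member and comparison, with 95% counting intervals; dotted lines mark a 2-fold difference. CSF2 lies right of 2-fold in every comparison, CSF3 only where indisulam is added, and CSF1 stays inside the dotted lines.

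Since each drug was given alone and with the other, the combination was set against what the single drugs would give. For CSF2, the sum of the single-drug levels less the untreated level was 20.02 CPM, and the combination exceeded it by 41.8 CPM (37.2 to 46.5). The product of the single-drug ratios would have given 762.3 CPM, and the combination reached 0.0811 of it (0.002 to 0.48). CSF2 was thus above additivity in CPM and below it in fold, and the latter depends on the single untreated read. For CSF3 the combination differed from the sum by -0.862 CPM (-3.81 to 2.09), and its ratio to the product was 1.72 (0.572 to 5.74), so neither was separated from additivity. For CSF1 the combination lay below both, with a difference from the sum of -218.5 CPM (-239.1 to -197.9) and at 0.587 of the product (0.556 to 0.62). The latter was -0.768 in log2, beside a robust standard deviation of 0.396 for the departures of genes at 100 CPM or more.

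The balance between the members was compared within each library, which does not depend on scaling between libraries. Counts were divided by the length of the Ensembl canonical transcript, 3994 bases for CSF1, 788 for CSF2 and 1504 for CSF3. On this scale of reads per kb, CSF1 made up 99.1%, 94.8%, 80.3% and 50.5% of the 3 transcripts. CSF2 made up 0.128%, 4.85%, 12.6% and 43.5%, and CSF3 0.737%, 0.324%, 7.01% and 5.93%. CSF2 and CSF1 were thus at a similar level per length in the combination, and their order depended on the length used, with CSF2 at 0.862 of CSF1 by canonical transcripts and at 1.13 by the union of annotated exons. CSF2 exceeded CSF3 per length in the 3 treated libraries with either length, by 14.95-fold with palbociclib, 1.80-fold with indisulam and 7.34-fold in the combination by canonical transcripts.

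**Figure D3:**
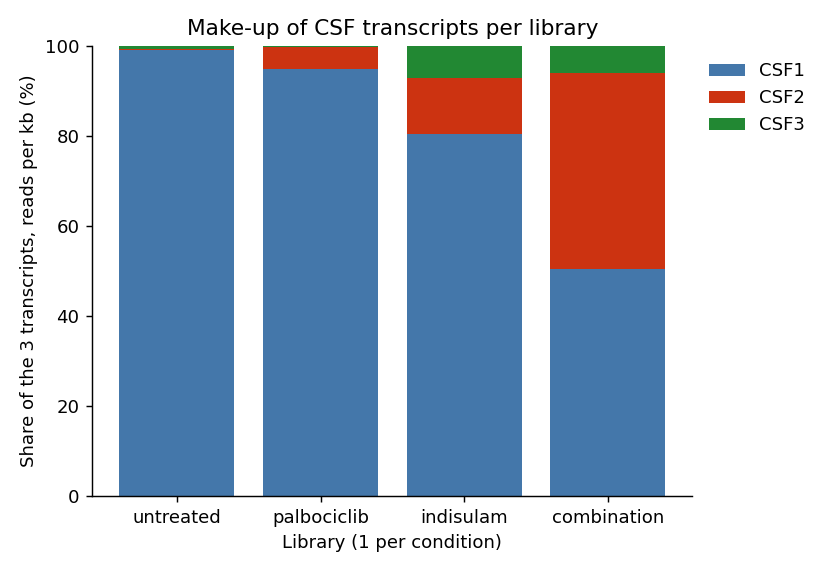
Share of each member in the summed reads per kb of the 3 transcripts (%), as stacked bars for each library. The bar of CSF1 shrinks from 99.1% in the untreated library to 50.5% in the combination, where CSF2 takes 43.5%.

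The contrast of the members was also taken as the change of one member relative to another. From indisulam to the combination, the reads of CSF2 per read of CSF3 were 4.07-fold higher (3.25 to 5.10), and those of CSF2 per read of CSF1 were 5.48-fold higher (4.76 to 6.32). From palbociclib to the combination, CSF2 per CSF3 changed by a ratio of 0.491 (0.169 to 1.17), so that a difference between these members in the response to added indisulam was not detectable. From untreated to palbociclib, CSF2 per CSF3 was 86.2-fold higher (8.72 to 3781).

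Counts were low for most receptor genes listed for the colony-stimulating factors, though not for SDC1. Of 8 genes listed, 3 did not exceed 3 reads in any library (CSF2RB, CSF3R and IL5RA), and 3 reached a mean of 1 CPM (CSF2RA, IL3RA and SDC1). CSF2RA, the alpha chain that binds GM-CSF, had 108, 64, 77 and 137 reads, a ratio of 1.11 between combination and untreated (0.856 to 1.44). CSF2RA and IL3RA, the IL3 receptor alpha chain, lie in the pseudoautosomal region of the sex chromosomes, where reads can align to both copies and then be left uncounted, so their levels are uncertain. IL3RA had 55, 8, 30 and 19 reads and was lower in the combination than untreated (ratio 0.302, 0.169 to 0.517). CSF1R, the receptor kinase of CSF1, had 3, 3, 12 and 17 reads, a ratio of 4.96 between combination and untreated (1.43 to 26.4) at a mean of only 0.594 CPM.

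PTPRZ1 and SDC1 encode further binding partners of IL34. PTPRZ1 had 1 to 4 reads. SDC1, a cell surface proteoglycan, had 50.7, 23.5, 30.5 and 52.6 CPM, lowest in palbociclib-treated cells. Of the 3 tested receptor genes 1 was called in the combination against untreated, where 23.6% of all genes were called in either direction. With palbociclib 2 were called lower (IL3RA and SDC1) and with indisulam 1 (IL3RA), where 10.8% and 15.4% of all genes were called. The median log2 ratio of the 3 genes in palbociclib, indisulam and combination libraries against untreated was -1.11, -0.90 and 0.05, beside -0.015, 0.06 and 0.05 over all genes tested.

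Among 10 other growth factors of blood cells, 4 were tested and 3 of them were called in the combination against untreated, where 23.6% of all genes were called. IL34, the other ligand of CSF1R, had 14, 167, 97 and 150 reads. It was 11.8-fold higher with palbociclib (6.84 to 22.1), 5.21-fold with indisulam (2.96 to 9.88) and 9.37-fold in the combination (5.41 to 17.6). The combination was at 0.794 of palbociclib (0.632 to 0.996). KITLG, the stem cell factor, had 77.2, 73.5, 34.3 and 36.8 CPM and was lower in the combination (0.476, 0.428 to 0.53). IL7, a lymphocyte growth factor, had 48, 34, 34 and 26 reads and was also lower (0.474, 0.282 to 0.779). TSLP, an epithelial cytokine, had 47, 21, 132 and 83 reads, with a ratio of 2.11 for indisulam and 1.54 for the combination (1.07 to 2.26). IL11 had 4, 4, 14 and 14 reads and FLT3LG at most 4. IL3, IL5, THPO and EPO did not exceed 3 reads. With palbociclib 2 of the 4 were called and with indisulam 3, against 10.8% and 15.4% of all genes, and the list median in the combination was -0.22 against 0.05 over all genes tested.

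Downstream of the receptors, 18 of 19 listed signalling genes were tested. In the combination against untreated 2 were called higher and 5 lower, or 38.9% of those tested against 23.6% of all genes, with a list median of -0.16. CISH, a target and inhibitor of STAT5 signalling, had 24.9, 18.7, 8.08 and 3.48 CPM, a ratio of 0.14 (0.102 to 0.189). SOCS3, which restrains receptors that signal through STAT3, including the G-CSF receptor, had 91.5, 53.2, 51.5 and 24.4 CPM, a ratio of 0.267 (0.236 to 0.301). SOCS2 had a ratio of 0.38 (0.286 to 0.5) and the adaptor SHC1 one of 0.433 (0.419 to 0.448). GAB2, an adaptor named after its values were seen, was called higher, at 2.09 (1.59 to 2.77) in the combination and 2.93 (2.27 to 3.82) with indisulam. SOCS1, a relative of SOCS2 and SOCS3 named after its values were seen, had 43, 42, 116 and 69 reads and was 2.03-fold higher with indisulam (1.42 to 2.95), with a ratio of 1.40 in the combination (0.945 to 2.104). No signalling gene was called with palbociclib, where 10.8% of all genes were, and 5 were called with indisulam, 3 higher and 2 lower, where 15.4% of all genes were. With TMM, median-of-ratios or upper-quartile scaling the indisulam split was 2 higher and 4 lower.

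The genes of IL-1 and other known inducers were read beside the members. Of 14 listed, 12 were tested and 7 were called in the combination against untreated, 5 higher and 2 lower, where 23.6% of all genes were called, with a list median of 0.70 against 0.05 over all genes tested. IL1A had 14, 9, 402 and 352 reads. IL1B had 23, 13, 435 and 587 reads. Both were low without indisulam and high with it, at 21.98-fold (12.9 to 40.6) and 22.3-fold (14.7 to 35.5) in the combination against untreated. TLR2, a receptor of bacterial lipoproteins, was 2.70-fold higher (2.32 to 3.16), and IL17RC, a chain of the IL-17 receptor, was lower at a ratio of 0.235 (0.203 to 0.271). TNF had 0, 0, 4 and 2 reads, and it is named after its values were seen. With palbociclib 2 of the 12 were called and with indisulam 5, against 10.8% and 15.4% of all genes.

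Of 24 transcription factors known from colony-stimulating factor promoters, 23 were tested, and 2 were called higher (FOSL1 and, named after its value was seen, ETS2) and 5 lower in the combination against untreated, or 30.4% against 23.6% of all genes, with a list median of -0.13. FOS, a subunit of AP-1, had 190.3, 208.1, 59.7 and 16.4 CPM, a ratio of 0.0863 (0.0752 to 0.0987). FOSB, a relative of FOS, had 29.5, 64.1, 11.8 and 4.46 CPM (0.151, 0.114 to 0.198). FOSL1, a further AP-1 subunit, went the other way with 22.6, 39.6, 53.0 and 69.8 CPM (3.09, 2.70 to 3.54). NFATC4, a calcium-regulated factor, was low in both libraries with palbociclib, at 12.8 and 12.7 CPM, against 33.9 untreated and 57.1 with indisulam. With indisulam 8 of the 23 were called, 6 higher and 2 lower. The former included NFKB2 and RELB of the NF-κB family, at ratios of 2.27 and 2.28, which are named after their values were seen. In the combination their ratios were 1.93 and 1.41, and neither was called. Their listed relatives NFKB1, RELA and REL, also named after their values were seen, had ratios of 1.39, 1.28 and 1.55 with indisulam. In the combination these were 1.12, 0.913 and 1.28, and none of these relatives was called in either comparison. With palbociclib 4 of the 23 were called. The shares of all genes called were 15.4% with indisulam and 10.8% with palbociclib.

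Proteins that bind AU-rich elements set the lifetime of short-lived cytokine mRNAs, and all 12 listed genes were tested. In the combination against untreated 1 was called higher and 2 lower, or 25.0% against 23.6% of all genes, with a list median of -0.21. ZFP36, or tristetraprolin, which promotes decay of such mRNAs, had 114.5, 108.7, 70.0 and 32.5 CPM, a ratio of 0.284 (0.255 to 0.315). Its relative ZFP36L2 had 393.7, 230.5, 282.3 and 128.8 CPM (0.327, 0.31 to 0.345). ZC3H12A, an RNase that degrades inflammatory mRNAs, had 23.6, 27.8, 107.4 and 77.7 CPM (3.29, 2.89 to 3.75). With indisulam 1 gene of the list was called and with palbociclib none, against 15.4% and 10.8% of all genes.

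**Figure D4:**
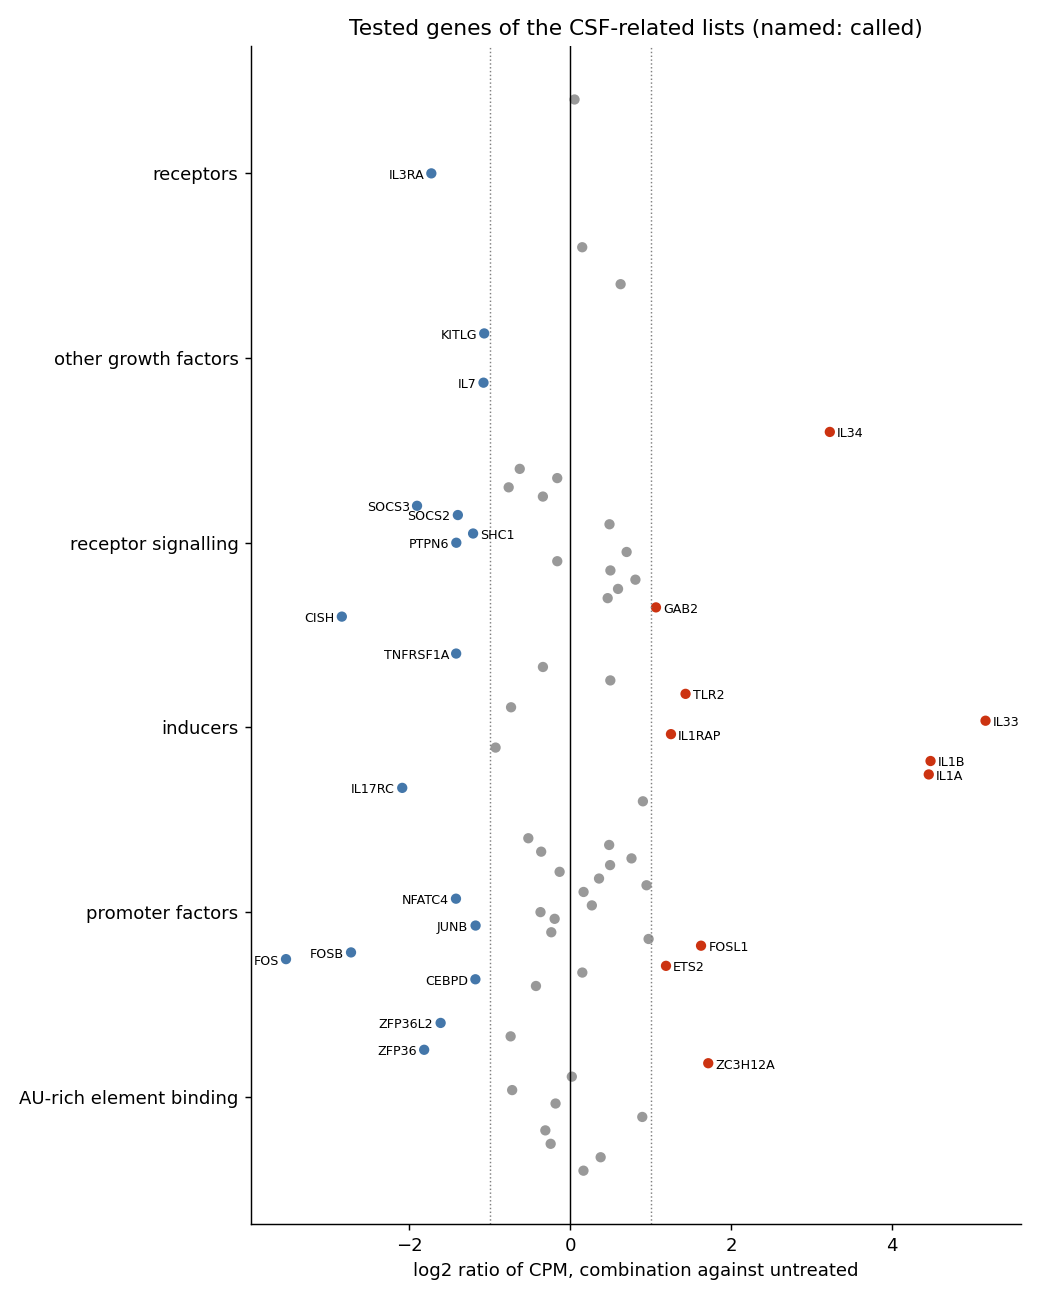
log2 ratio of CPM between combination and untreated for tested genes of the 6 lists, 1 point a gene with 1 signalling gene not drawn, with called genes coloured (red higher, blue lower) and named; dotted lines mark 2-fold. IL34, IL1A, IL1B and IL33 (named after its value was seen) stand far to the right, and FOS, FOSB and CISH far to the left.

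Genes beside the members on the chromosomes were examined within 250 kb. None of the members overlapped another annotated gene. IL3, which lies 10.6 kb before CSF2, had 0 reads in all 4 libraries. The floor of 3 reads came to 0.239 CPM without treatment and 0.209 CPM under both drugs. Of the 7 protein-coding neighbours of CSF2, 3 were tested and 1 was called higher in the combination, SLC22A4, with 14, 67, 33 and 47 reads. P4HA2, at 114 kb, had a ratio of 1.82 and PDLIM4, at 181.5 kb, one of 1.73. Of the 10 tested neighbours of CSF3, 2 were called lower (GSDMB and RAPGEFL1) and none higher. The nearest, MED24, ends 1.28 kb from CSF3 on the opposite strand and had a ratio of 0.598. GSDMA, a neighbour of CSF3 too low to be tested (mean 0.333 CPM), had 2, 0, 1 and 16 reads. Its ratio between combination and untreated was 6.995 (1.645 to 62.7). Of the 6 tested neighbours of CSF1, 3 were called lower (GSTM4, GSTM2 and AHCYL1), and AHCYL1 was at 0.251 of untreated. The share of all genes called in this comparison was 23.6%.

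The genes with the most similar pattern to each member were taken from the 14269 genes, by the Euclidean distance between profiles of log2(CPM + 0.5), each centred on its mean over the 4 libraries. With 4 points the likeness is only a description, and it depends on the measure: by Pearson correlation 0 of the 5 nearest genes remained for each member. The genes nearest to CSF2 were FGF1 (distance 0.907), ACTBL2 (1.02), ACTG2 (1.05), ARNT2 (1.10) and IGFBP5 (1.57). FGF1, a fibroblast growth factor, had 2, 32, 128 and 534 reads. ACTG2, the smooth muscle gamma actin, had 64, 285, 1573 and 3099 reads. In these 5 genes the combination was 42.3-fold to 233.5-fold above untreated and 1.40-fold to 4.86-fold above indisulam.

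The genes nearest to CSF3 were CSGALNACT1 (0.223), IL1A (0.277), CCL20 (0.426), ENSG00000236453 (0.497) and IL1B (0.586). CCL20, a chemokine, had 4, 2, 148 and 101 reads. In these 5 genes the ratio of combination to indisulam ranged from 0.794 to 1.57. The genes nearest to CSF1 were ZFAS1 (0.044), FAM89A (0.069), RASD2 (0.079), BDP1 (0.089) and PET117 (0.094), with ratios of indisulam to untreated between 1.60 and 2.25. ZFAS1, a noncoding host gene of small nucleolar RNAs, had 709, 855, 1596 and 979 reads. Among the members the distances were 2.80 between CSF2 and CSF3, 3.57 between CSF1 and CSF3 and 4.74 between CSF1 and CSF2. Of 14268 other genes, CSF3 was place 112 in closeness to CSF2, and CSF2 was place 591 in closeness to CSF3.

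**Figure D5:**
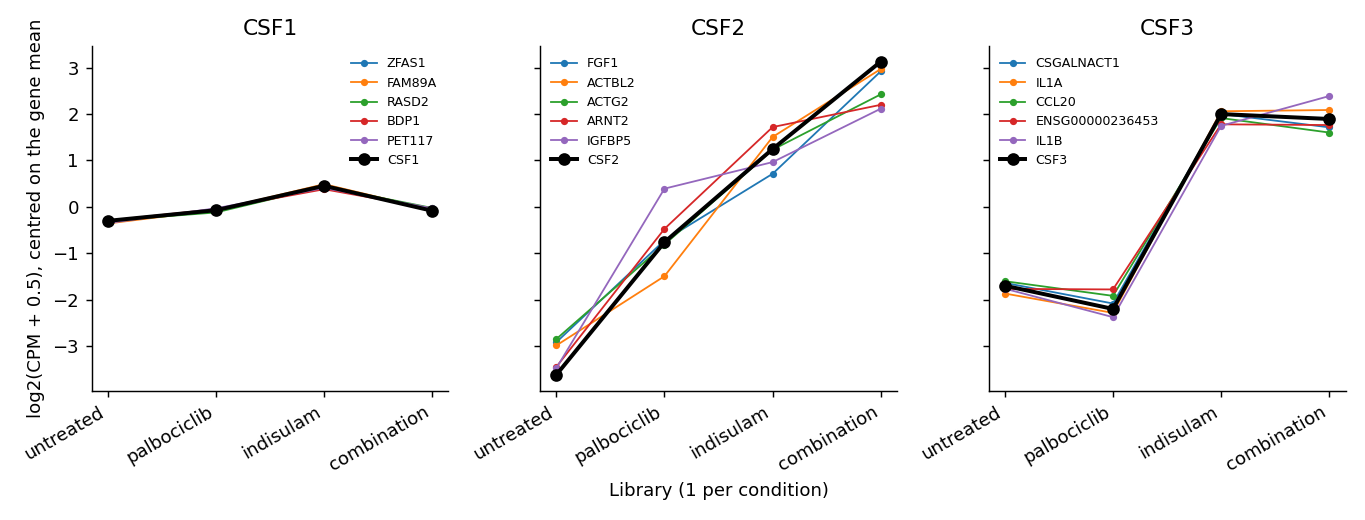
Profiles of log2(CPM + 0.5), centred on the mean of each gene, over the 4 libraries for each member (black) and the 5 genes nearest to it. The CSF2 panel climbs in steps, the CSF3 panel jumps where indisulam is present, and the CSF1 panel is nearly flat with its top at indisulam.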

How the data were processed

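RNA-seq was performed on 4 SUM159 libraries, 1 per condition. The deposited values are raw read counts per Ensembl gene; per the labels, the submitters' processing notes name GRCh38, TopHat2 2.1 and HTSeq. The strand setting and the annotation release are not given in the sources used here. The libraries were stranded and poly(A)-selected. Whether the technical duplicates named in the series text were pooled was not stated. Reads not assigned to a gene, 9.61% to 10.1% of each table, were left out.

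Counts were divided by total gene counts (CPM). Ratios carry exact conditional (Clopper-Pearson) intervals, levels exact Poisson intervals, and the departure from the product of the drugs and ratios between members Fisher's conditional interval. The interval for the sum is a normal approximation. A count of 0 was set to 3 reads, and no ratio was given when both counts were at or under 3. Lacking replicates, no p-value was computed. The 14269 genes with a mean of at least 1 CPM were tested for calls (ratio at least 2-fold, 95% interval off 1). The calls were tested on data simulated with counting error alone, the same model as the intervals. That simulation leaves out variation between cultures, so it cannot show how the calls would fare with it. Positions are from GENCODE 44, and 14111 tested genes had a symbol. Scaling alternatives used edgeR 4.0.16 and DESeq2 1.42.0.

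The members and lists were chosen with earlier results of these data known. Named were the members, receptors and growth factors above 3 reads in any library, up to 4 called genes at 5 CPM or more per other list, the neighbours (in part, others as counts) and the 5 most similar genes per member. Of the signalling genes, 1 is counted but its own result is not reported here.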

Additional observations from a re-analysis of the deposited data

Results flagged for a closer look

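CSF1 was higher with palbociclib than without it in the absence of indisulam, at a ratio of 1.17, and lower with palbociclib in its presence, at 0.689 between combination and indisulam. The counting intervals of both ratios excluded 1, in opposite directions. Against the spread over genes used above, the log2 ratio of the first was 0.82 times and that of the second 1.92 times. The ratio between these ratios is the departure from the product of the single drugs, 0.587 (0.556 to 0.62, counting error only). In log2 it was -0.768, where the departures of genes at 100 CPM or more had a robust standard deviation of 0.396. With 1 library per condition the difference was not tested against the spread between cultures.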

How the results depend on the processing

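No paired analysis was possible because each condition had 1 library and the labels carry no replicate numbers, so no library could be left out either. CSF1 moved with the scaling beyond its counting interval. With TMM factors its ratio was 1.61 for indisulam against untreated, 1.09 for the combination against untreated and 0.926 against palbociclib, with median-of-ratios size factors 1.61, 1.10 and 0.939, and with upper-quartile factors 1.61 for indisulam. With 1 scaled count added, the ratio of CSF2 between combination and untreated was 410.9 and its departure from the product 0.15. No member's ratio and no departure changed direction under any of these 4 settings.

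In the order palbociclib, indisulam and combination against untreated, then combination against palbociclib and against indisulam, the genes called were 1548, 2201, 3372, 2447 and 1206. They were 838, 1235, 2115, 1408 and 552 at a mean of at least 5 CPM, and 3524, 4493, 6022, 4669 and 3167 at a 1.5-fold threshold. Higher calls outnumbered lower ones in all 5 comparisons, but not for indisulam against untreated under TMM, median-of-ratios (1082 higher, 1089 lower) or upper-quartile scaling (1070, 1100), nor for the combination under TMM or median-of-ratios scaling against untreated (1674, 1681 for the latter) and palbociclib (1203, 1227). With no filter 1897 were called between combination and indisulam. At a mean of at least 5 CPM the receptors called were 1, 0 and 0 in the 3 comparisons with untreated, the growth factors 1 with palbociclib, the signalling genes 3 with indisulam and the inducers 1 with palbociclib. With no filter 2 receptors were called in the combination. At 1.5-fold the receptors called were 3 with indisulam, and the signalling genes 4, 11 and 12 in those 3 comparisons. The inducers called were 4 and 10 with palbociclib and indisulam, and the transcription factors 7 with palbociclib. Genes called from the AU-rich element list were 3, 3 and 6 in the 3 comparisons. Of the 5 genes nearest to CSF3, 3 remained with a pseudocount of 1 CPM, and by Pearson correlation 0 of the 5 remained for each member. The fewer or more genes past the filter and threshold follow from these settings, and the cause of the scaling shifts was not tested. Depth limits the ratios of CSF2 and CSF3 to the libraries with 1 to 11 reads.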
